A study of Homo sapiens with 14 samples.

Results

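The 39 genes described here encode the enzymes, regulators and coat proteins of fatty acid synthesis and lipid droplet storage. They were chosen as a list by gene symbol, and all 39 were found among the 56479 genes of the count table. Of these, 36 passed the filter on low counts and were tested. THRSP, a regulator of hepatic fat synthesis, SCD5, a second stearoyl-CoA desaturase, and CIDEB, a droplet protein of liver cells, did not pass. Their group means were at most 0.179, 0.0525 and 0.0207 CPM (counts relative to the library size, scaled by TMM). CIDEB shares 100% of its exon bases with genes on the opposite strand, and the sources used here give no counting strand. Whether this lowered its counts was not tested.

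RNA was sequenced from HepG2, an established hepatoblastoma line, and Hep3B, an established hepatocellular carcinoma line, both labelled wild type, in 14 libraries forming 7 groups of 2. On culture dishes, HepG2 grew in regular isotonic medium or was exposed for 5 days to 4% polyethylene glycol 300 (PEG), which makes the medium hyperosmotic and draws water from cells. HepG2 on transwells, inserts with a porous membrane, was left uncompressed or put under a weight. Hep3B on transwells was left uncompressed, put under a weight or given 3% PEG. The dish cultures were grown in DMEM with serum, and the sources used here do not give the medium, the time or the mass of the weight for the transwell cultures. Each line stands for 1 tumour, so neither is a model of liver cells at large. The comparisons ask how genes respond when cells are compressed by osmosis or by load.

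As background, fatty acid synthesis starts in the cytosol from citrate or acetate. ACLY and ACSS2 make acetyl-CoA, the acetyl-CoA carboxylases ACACA and ACACB make malonyl-CoA, and FASN builds palmitate. Elongases (ELOVL) lengthen the chain and desaturases (SCD, FADS) add double bonds, while acyl-CoA synthetases (ACSL) activate fatty acids for further use. GPAM, the AGPAT and the DGAT enzymes then attach acyl chains to a glycerol backbone, and the LPIN enzymes remove its phosphate before the last chain. The triglyceride formed is stored in droplets coated by perilipins (PLIN) and CIDE proteins and emptied by lipases such as PNPLA2. SREBF1 and MLXIPL are the transcription factors best known for switching on this program in liver, in response to insulin and sugar.

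SCD and ACLY are shown by their promoter sequence because both fell under 3% PEG in Hep3B (below) and both hold CCAAT, the element bound by NF-Y, a factor known to work with SREBF1. Sequences are from RefSeq on GRCh38.p14, 5′ to 3′ on the gene's strand, with CCAAT or its complement ATTGG in capitals. Only bases before the RefSeq start site that no GENCODE 29 exon covers are printed. The SCD stretch lies at chr10:100346983-100347123 on the plus strand and ends 110 bases before the start site. The ACLY stretch lies at chr17:41919023-41919272 on the minus strand and ends at the start site. A longer GENCODE model of ACLY starts 11520 bases further upstream.
SCD: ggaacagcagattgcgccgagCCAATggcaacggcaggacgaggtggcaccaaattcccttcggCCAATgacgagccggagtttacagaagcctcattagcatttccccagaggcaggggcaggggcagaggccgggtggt
ACLY: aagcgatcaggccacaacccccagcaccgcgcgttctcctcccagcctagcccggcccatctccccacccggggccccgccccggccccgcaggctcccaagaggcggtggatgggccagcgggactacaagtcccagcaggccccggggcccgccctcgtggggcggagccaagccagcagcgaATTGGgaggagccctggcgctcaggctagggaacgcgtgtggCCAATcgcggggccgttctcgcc
The 2 matches of SCD begin 229 and 186 bases before its start site, those of ACLY 65 and 23 bases before. Promoter windows of 300 bases (250 before to 50 after a start) were found for 34 of the 39 genes, all except FASN, PNPLA3, DGAT1, DGAT2 and LPIN3. CCAAT, searched on both strands, occurred in 16 of these 34 (47.1%), against 34.6% of all 35116 windows in the table. The E-box CACGTG occurred in 3 of the 34 (ELOVL5, LPIN2 and PLIN2) against 7.26% of all windows, and the sterol-response-like TCACNCCAC in 2 (MID1IP1 and PNPLA2) against 1.13%. Among the genes lower under 3% PEG in Hep3B, ACSS2 also held CCAAT, while ACACA, FADS1, ELOVL2, ELOVL6, ACSL4 and PLIN2 did not. Among those higher there, FADS3 and PLIN4 held it, while ACSL1, ACSL5, ACACB and CIDEC did not. A match describes these letters only.

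The libraries held 21.2 M to 35.4 M counts each. The 2 lines were checked by 6 hepatocyte markers, and all 6 had at least 20 counts in every group. Their summed level was lower under 4% PEG (21217 to 23987 CPM) than in isotonic dishes (102498 to 115010.4 CPM). It was also lower under the weight in HepG2 (63741 to 71453 CPM) than without it (83471 to 91257 CPM), and under 3% PEG in Hep3B (24169 to 24325 CPM) than in uncompressed Hep3B (35798 to 38458 CPM), without overlap, while the Hep3B weight libraries (35627 to 36504 CPM) overlapped the uncompressed ones. The sum follows the most abundant of the 6. By edgeR's quasi-likelihood test (adjusted p under 0.05) ALB, AFP, APOA1, APOB and TTR fell under 4% PEG. HNF4A did not pass there (log2 fold change 0.10). Under 3% PEG ALB, AFP and APOA1 fell, HNF4A rose (0.48), and APOB and TTR did not pass (-0.30 and 0.11). Under the weight in HepG2 TTR alone passed (-0.66), and APOA1 stood at 0.16. The part of these marker changes in the results below was not tested. The 4 adipocyte markers summed to at most 0.654 CPM in every library. The 5 fibroblast and stellate markers summed to 2.54 to 29.04 CPM, the 3 endothelial ones to 0.494 to 14.9 CPM and the 4 blood ones to 0.637 to 11.2 CPM, the last of these highest under 4% PEG, where PTPRC had 0 counts and CD68 had 570 counts. CD68 shares 81.7% of its exon bases with another gene on the same strand, and how shared reads were counted is not given. In bulk RNA, fewer cells of a type and less RNA per cell cannot be told apart. The labels call libraries of a group biological replicates without saying whether cultures were separate, so p-values measure the spread between these samples.

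The dish libraries stood apart in their replicate error. The 2 libraries of a dish group differed by a median of 0.527 on the log2 scale over the 36 tested genes, in isotonic medium and in 4% PEG alike, against 0.0538 to 0.109 in the transwell groups. In the dish groups the difference between replicates followed the GC content of the transcripts, with a Spearman rho across genes of 0.869 in isotonic medium and 0.934 in 4% PEG. In 4 of the 5 transwell groups rho lay between -0.236 and 0.188, and it was 0.594 under 3% PEG in Hep3B. These genes share their 2 libraries, so rho is a description and carries no p. The model shared 1 estimate of spread over all 14 libraries. The SE and p of 4% PEG below thus rest in part on the smaller transwell spread. Those of the transwell comparisons rest in part on the larger dish spread. Each count of calls over the 36 genes in 1 comparison is therefore followed by that of a fit to dish or to transwell libraries alone.

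**Figure D1:**
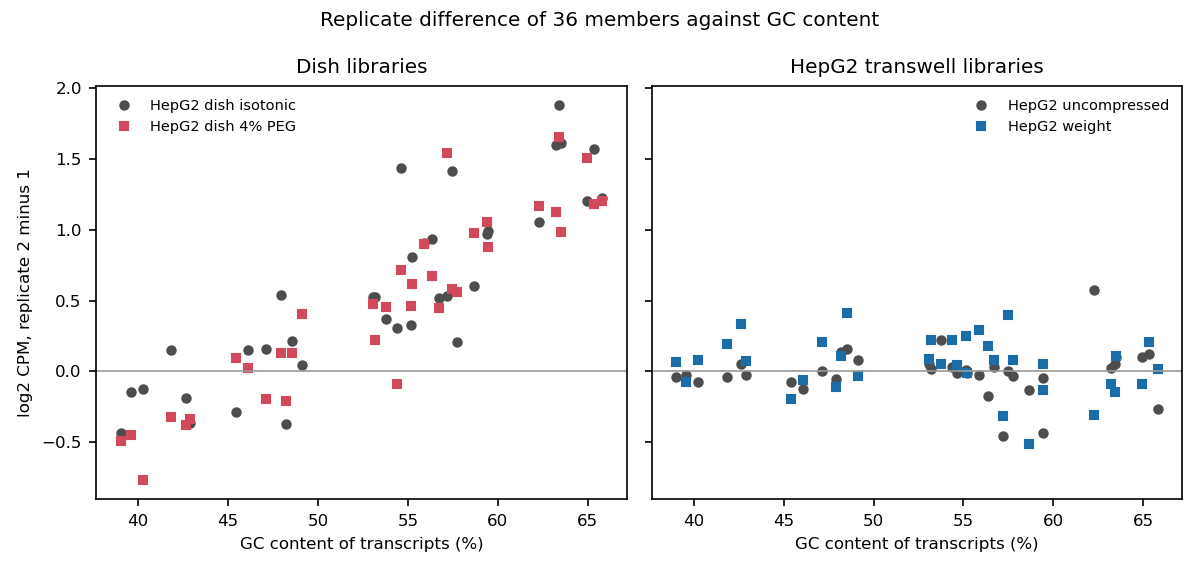
Each point is 1 of the 36 tested genes, with the GC content of its transcripts (%) on the x axis and the log2 CPM of replicate 2 minus replicate 1 on the y axis, for 2 dish groups (left) and 2 HepG2 transwell groups (right). The dish points climb with GC content (rho 0.869 and 0.934) while the transwell points stay near 0.

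Under 4% PEG, HepG2 on dishes lost transcripts of the droplet coat protein PLIN2 and of the glycerol acyltransferase GPAM and gained transcripts of the acyl-CoA synthetases ACSL1 and ACSL5 and of the droplet-fusing protein CIDEC. SCD, ACLY and FASN did not pass the test. Genes of the mitochondrial genome took 7.34% and 5.05% of counts under 4% PEG against 1.87% and 0.999% in isotonic dishes, and their part in these changes was not tested. In the other 3 compression comparisons this share overlapped between treated and control libraries. Of the 36 tested genes, 20 were called by edgeR's quasi-likelihood test (Benjamini-Hochberg adjusted p under 0.05 over all 19232 genes tested), 9 higher and 11 lower, where 46.9% of all genes were called (23.9% higher and 23.0% lower). The share of the list, 55.6%, stood near that background, and the median log2 fold change was -0.09 against 0.01 over all genes. The fit of the 4 dish libraries alone called 13, 6 higher and 7 lower, beside 19.3% of all genes (10.2% higher and 9.05% lower), and lost PNPLA3, LPIN1, LPIN2, MID1IP1, AGPAT1, AGPAT2 and PLIN3. With the replicate number as a block, a fit of the same 4 libraries called 25, these 7 among them, beside 58.5% of all genes; libraries of the same number deviated together on dishes (r = 0.633 across genes), but the labels do not say what a number shares. Scaling by total counts, without TMM, moved the median of all genes to 0.37 and the split of the list to 13 higher and 9 lower.

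Under the weight in HepG2, AGPAT2, an acyltransferase of triglyceride synthesis, and ACSL5 rose, while GPAM, ACSL4, FADS1 and ACACA fell. These 6 calls of 36 (16.7%) stood beside 9.58% of all genes, with 2 higher against 5.4% and 4 lower against 4.18%. The median log2 fold change was -0.09, against 0.00 over all genes. With RLE size factors the 6 calls split into 3 higher and 3 lower. The transwell fit called 27, 11 higher and 16 lower, beside 36.9% of all genes (18.7% higher and 18.3% lower), and kept the 6. The count was 1 without either uncompressed library, 2 without weight replicate 1 and 5 without weight replicate 2.

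The weight on Hep3B raised PLIN2 and SCD, the 2 genes of 36 called (5.56%), beside 1.05% of all genes (0.879% higher and 0.172% lower), and edgeR called none lower. At an unadjusted p under 0.05 edgeR gave 12 genes, of which ELOVL2 alone was lower, and DESeq2 called 5 higher and 0 lower. The median log2 fold change was 0.15, against -0.01 over all genes. The transwell fit called 20, 16 higher and 4 lower, beside 14.7% of all genes (7.57% higher and 7.13% lower). No gene of the list was called without either uncompressed library or without weight replicate 2, where 8, 6 and 8 genes respectively had an unadjusted p under 0.05, and 1 was called without weight replicate 1.

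Under 3% PEG, Hep3B had lower levels of SCD, ACLY, ACSS2, ACACA, FADS1, ELOVL2, ELOVL6, ACSL4, PNPLA3 and PLIN2, and higher levels of ACSL1, ACSL5, FADS3, ACACB, DGAT2, PLIN4 and CIDEC. These 17 of 36 (47.2%) stood beside 22.5% of all genes called, the 7 higher ones beside 11.0% and the 10 lower ones beside 11.5%. The median log2 fold change was -0.41, against -0.01 over all genes. The transwell fit called 28, 9 higher and 19 lower, beside 49.9% of all genes (26.3% higher and 23.6% lower), and kept the 17. Without PEG replicate 2 the count was 9. Over the 4 comparisons, 10 genes of the list were called in none, 11 in 1, 11 in 2, and 4 (FADS1, ACSL4, ACSL5 and PLIN2) in 3 (27.8%, 30.6%, 30.6% and 11.1% of the 36), and none in all 4. Over all genes tested, 42.8% were called in none, 38.2% in 1, 15.5% in 2, 3.3% in 3 and 0.213% in 4. Both Hep3B comparisons share their uncompressed libraries.

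**Figure D2:**
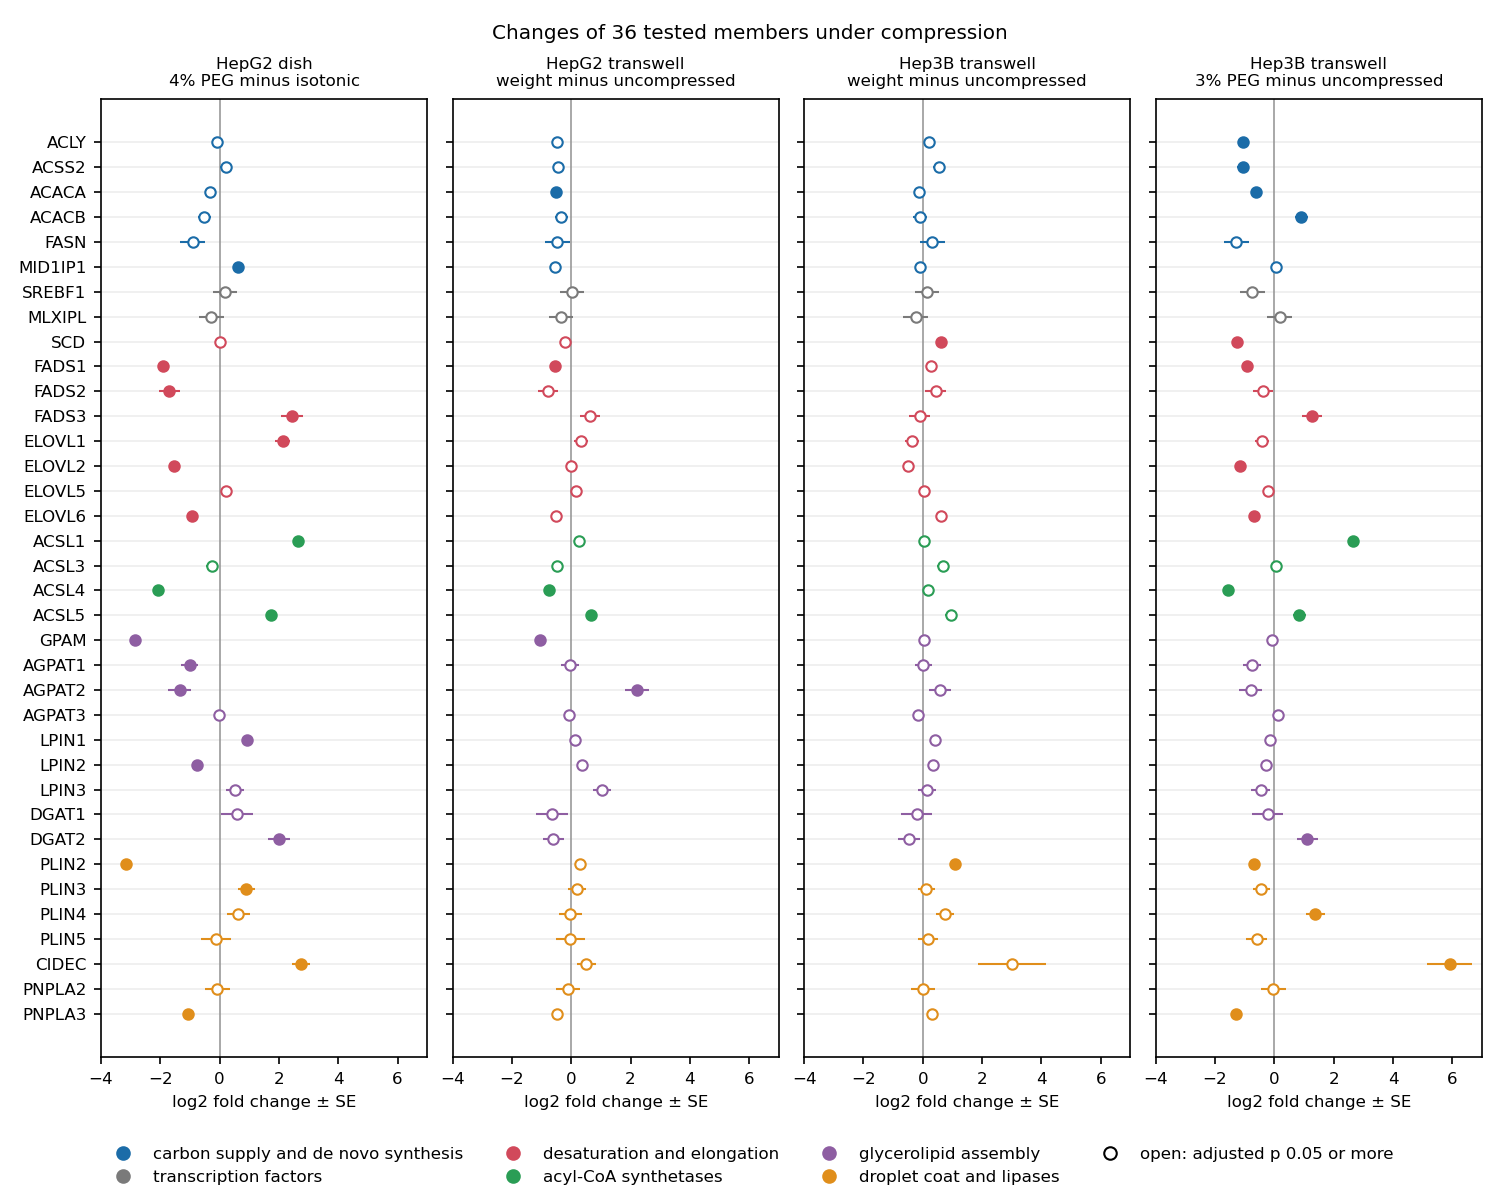
Log2 fold change ± SE (x axis) of the 36 tested genes (rows, coloured by role) in the 4 compression comparisons; filled points had an adjusted p under 0.05. Filled points number 20, 6, 2 and 17 from left to right, and the CIDEC value of the Hep3B panels rests on 1 count in the uncompressed group.

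In carbon supply and de novo synthesis, 6 of 7 genes were tested. Under 3% PEG in Hep3B, 3 of the 6 fell (against 11.5% of all genes) and 1 rose (against 11.0%). The transwell fit called 4 lower and 1 higher, beside 23.6% and 26.3% of all genes. ACLY, which splits citrate into acetyl-CoA, stood at 652 ± 13.8 CPM uncompressed and 311 ± 7.96 CPM under 3% PEG (mean ± SD, n = 2, here and below), a log2 fold change of -1.07 ± 0.16 (SE; adjusted p = 0.000627). ACSS2, which makes acetyl-CoA from acetate, changed by -1.07 ± 0.18 and ACACA by -0.63 ± 0.14. ACACB, the carboxylase placed at mitochondria, changed in the other direction, by 0.91 ± 0.22. FASN fell short of the threshold, with 636 ± 45 CPM uncompressed and 261 ± 28.2 CPM under 3% PEG and a log2 fold change of -1.28 ± 0.43 (SE; adjusted p = 0.0507); the transwell fit put its adjusted p at 4.71e-07. In HepG2 the isotonic FASN libraries alone spanned 512 and 1525 CPM, and the 4% PEG libraries held 332 and 753 CPM, so the groups overlapped. MID1IP1, a partner of ACACA, rose by 0.61 ± 0.16 under 4% PEG. Under the weight in HepG2 the 14-library fit called ACACA alone of the 6, with -0.51 ± 0.14 (9.58% of all genes were called). All 6 log2 fold changes there lay between -0.56 and -0.34, with a median of -0.48 against 0.00 over all genes. The transwell fit called 5 lower and 0 higher, beside 18.3% and 18.7% of all genes. Under the weight in Hep3B it called 3 higher and 0 lower, beside 7.57% and 7.13%.

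The 2 transcription factors did not pass the test in any comparison of the 14-library fit, in edgeR or DESeq2, and neither had an unadjusted p under 0.05 in edgeR under compression. SREBF1 stood between 26.8 and 49.2 CPM as group means and MLXIPL between 28.1 and 51.6 CPM. In the transwell fit SREBF1 was lower under 3% PEG in Hep3B, with a log2 fold change of -0.69 (adjusted p = 0.000208). MLXIPL was called in all 3 transwell comparisons of that fit, at -0.32 (adjusted p = 0.000252) under the weight in HepG2, -0.22 (adjusted p = 0.0265) under the weight in Hep3B and 0.23 (adjusted p = 0.00517) under 3% PEG. Messenger levels do not show how much of either factor was active.

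SCD, which puts the first double bond into saturated chains, had the highest level per kilobase of exon of the list in all 7 groups. Its libraries held 2956 and 3087 CPM in uncompressed Hep3B, 4554 and 4784 CPM under the weight and 1296 and 1249 CPM under 3% PEG. The 3 Hep3B groups did not overlap, with the weight above and 3% PEG below the uncompressed cells. The log2 fold change was 0.63 ± 0.11 (SE; adjusted p = 0.0225) for the weight and -1.25 ± 0.12 (SE; adjusted p = 2.33e-05) for 3% PEG. In HepG2 on transwells the libraries held 4878 and 4887 CPM uncompressed and 3915 and 4528 CPM under the weight, and on dishes 5480.4 and 6118 CPM in isotonic medium and 6283 and 5485 CPM in 4% PEG. Both weight libraries lay below both uncompressed ones, and the dish groups overlapped. Neither HepG2 difference passed the test in the fit of all libraries (-0.21 ± 0.11, SE; adjusted p = 0.307 and 0.02 ± 0.11, SE; adjusted p = 0.908). SCD made up 33.3% and 33.4% of the summed CPM of the 39 genes in the uncompressed Hep3B libraries, 38.4% and 40.0% under the weight, and 25.8% and 25.0% under 3% PEG.

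FADS1, the Δ5 desaturase of polyunsaturated fatty acid synthesis, fell in 3 of the 4 comparisons. On dishes its libraries held 355 and 439 CPM in isotonic medium and 108 and 102 CPM in 4% PEG. On transwells HepG2 held 448 and 458 CPM uncompressed and 286 and 334 CPM under the weight. Hep3B held 412 and 415 CPM uncompressed, 508 and 487 CPM under the weight and 217 and 216 CPM under 3% PEG. Treated and control libraries did not overlap in any of the 4 comparisons, and the Hep3B weight libraries were the ones above their controls. The log2 fold changes were -1.92 ± 0.12 (SE; adjusted p = 2.43e-07) for 4% PEG, -0.55 ± 0.12 (SE; adjusted p = 0.0138) for the weight in HepG2, 0.27 ± 0.12 (SE; adjusted p = 0.567) for the weight in Hep3B and -0.93 ± 0.12 (SE; adjusted p = 0.00022) for 3% PEG. FADS2, the Δ6 desaturase encoded beside it, fell by 1.69 under 4% PEG (adjusted p = 0.00191). In the fit of all libraries FADS2 missed the threshold in the other 3 comparisons. FADS3, the third gene of this cluster on chromosome 11, rose under both PEG treatments, by 2.43 ± 0.36 in HepG2 and 1.27 ± 0.35 in Hep3B.

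Among the elongases, ELOVL2 and ELOVL6 fell under both PEG treatments. ELOVL2, which extends polyunsaturated chains, held 584 and 621 CPM in uncompressed Hep3B and 271 and 263 CPM under 3% PEG (-1.17 ± 0.14, SE; adjusted p = 0.000125). Its Hep3B weight libraries, at 450.0 and 403 CPM, lay between these groups, with -0.50 ± 0.14 (SE; adjusted p = 0.157). On dishes ELOVL2 held 223 and 202 CPM in isotonic medium and 83.9 and 61.4 CPM in 4% PEG (-1.55 ± 0.14, SE; adjusted p = 3.94e-06). All of these control and PEG libraries were apart. ELOVL6, which makes stearate from palmitate, changed by -0.92 ± 0.15 under 4% PEG and -0.67 ± 0.15 under 3% PEG. ELOVL1, an elongase of very long saturated chains, rose by 2.12 ± 0.24 under 4% PEG. In the fit of all libraries ELOVL5 was called in none of the 4 comparisons, with log2 fold changes from -0.21 to 0.21. Of the 8 tested desaturases and elongases, the transwell fit called 3 higher and 4 lower under the weight in HepG2 (36.9% of all genes). It called 3 higher and 2 lower under the weight in Hep3B (14.7%), and 1 higher and 6 lower under 3% PEG (49.9%). The dish fit called 2 higher and 4 lower under 4% PEG (19.3%).

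Among the acyl-CoA synthetases, ACSL1 and ACSL5 rose and ACSL4 fell under both PEG treatments. ACSL1, which feeds fatty acids to triglyceride synthesis and oxidation in liver, held 35.9 and 39.9 CPM in isotonic HepG2 and 234 and 238 CPM in 4% PEG. In Hep3B it held 24.7 and 24.2 CPM uncompressed, 26.7 and 23.2 CPM under the weight and 151 and 154 CPM under 3% PEG. Both PEG groups lay far above their controls, while the Hep3B weight libraries spanned the uncompressed ones. The log2 fold change was 2.64 ± 0.12 (SE; adjusted p = 1.51e-08) for 4% PEG and 2.64 ± 0.12 (SE; adjusted p = 2.82e-07) for 3% PEG. Under the weight it was 0.26 ± 0.11 (SE; adjusted p = 0.18) in HepG2 (54.1 and 49.6 CPM uncompressed, 63.3 and 60.8 CPM compressed) and 0.03 ± 0.11 (SE; adjusted p = 1) in Hep3B.

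ACSL4, which prefers arachidonate, fell in 3 of the 4 comparisons. Its libraries held 3117 and 2300.3 CPM in isotonic dishes and 748 and 532 CPM in 4% PEG, and 2101 and 2040.2 CPM in uncompressed HepG2 and 1194 and 1251 CPM under the weight. Hep3B held 1152 and 1211 CPM uncompressed, 1368 and 1274 CPM under the weight and 422 and 378 CPM under 3% PEG. The 3 falls were without overlap between libraries, and the Hep3B weight libraries were slightly above their controls. The log2 fold changes were -2.08 ± 0.18 (SE; adjusted p = 2.26e-06) for 4% PEG, -0.76 ± 0.17 (SE; adjusted p = 0.016) and 0.16 ± 0.17 (SE; adjusted p = 0.968) for the weight in HepG2 and Hep3B, and -1.56 ± 0.17 (SE; adjusted p = 8.48e-05) for 3% PEG.

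ACSL5, a synthetase of mitochondria and endoplasmic reticulum, rose in 3 of the 4 comparisons, though from very different levels. HepG2 held 217 and 178 CPM in isotonic dishes and 627 and 669 CPM in 4% PEG, and 102 and 96.3 CPM uncompressed and 168 and 146 CPM under the weight on transwells. Hep3B held 0.734 and 1.05 CPM uncompressed, 1.69 and 1.75 CPM under the weight and 1.57 and 1.62 CPM under 3% PEG. Treated libraries lay above their controls in all 4 comparisons, with a log2 fold change of 1.72 ± 0.13 (SE; adjusted p = 1.18e-06) for 4% PEG, 0.67 ± 0.13 (SE; adjusted p = 0.00882) for the weight in HepG2, 0.94 ± 0.21 (SE; adjusted p = 0.0694) for the weight in Hep3B and 0.84 ± 0.21 (SE; adjusted p = 0.0152) for 3% PEG. ACSL3, which localises to growing droplets, passed the test in none of the 4 comparisons of the 14-library fit. Its log2 fold change was -0.47 ± 0.19 under the weight in HepG2 and 0.68 ± 0.19 in Hep3B. The transwell fit called all 4 synthetases under the weight in HepG2, 2 higher and 2 lower (36.9% of all genes). It called 3 higher and 0 lower under the weight in Hep3B (14.7%), and 2 higher and 1 lower under 3% PEG (49.9%). The dish fit called 2 higher and 1 lower under 4% PEG (19.3%).

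**Figure D3:**
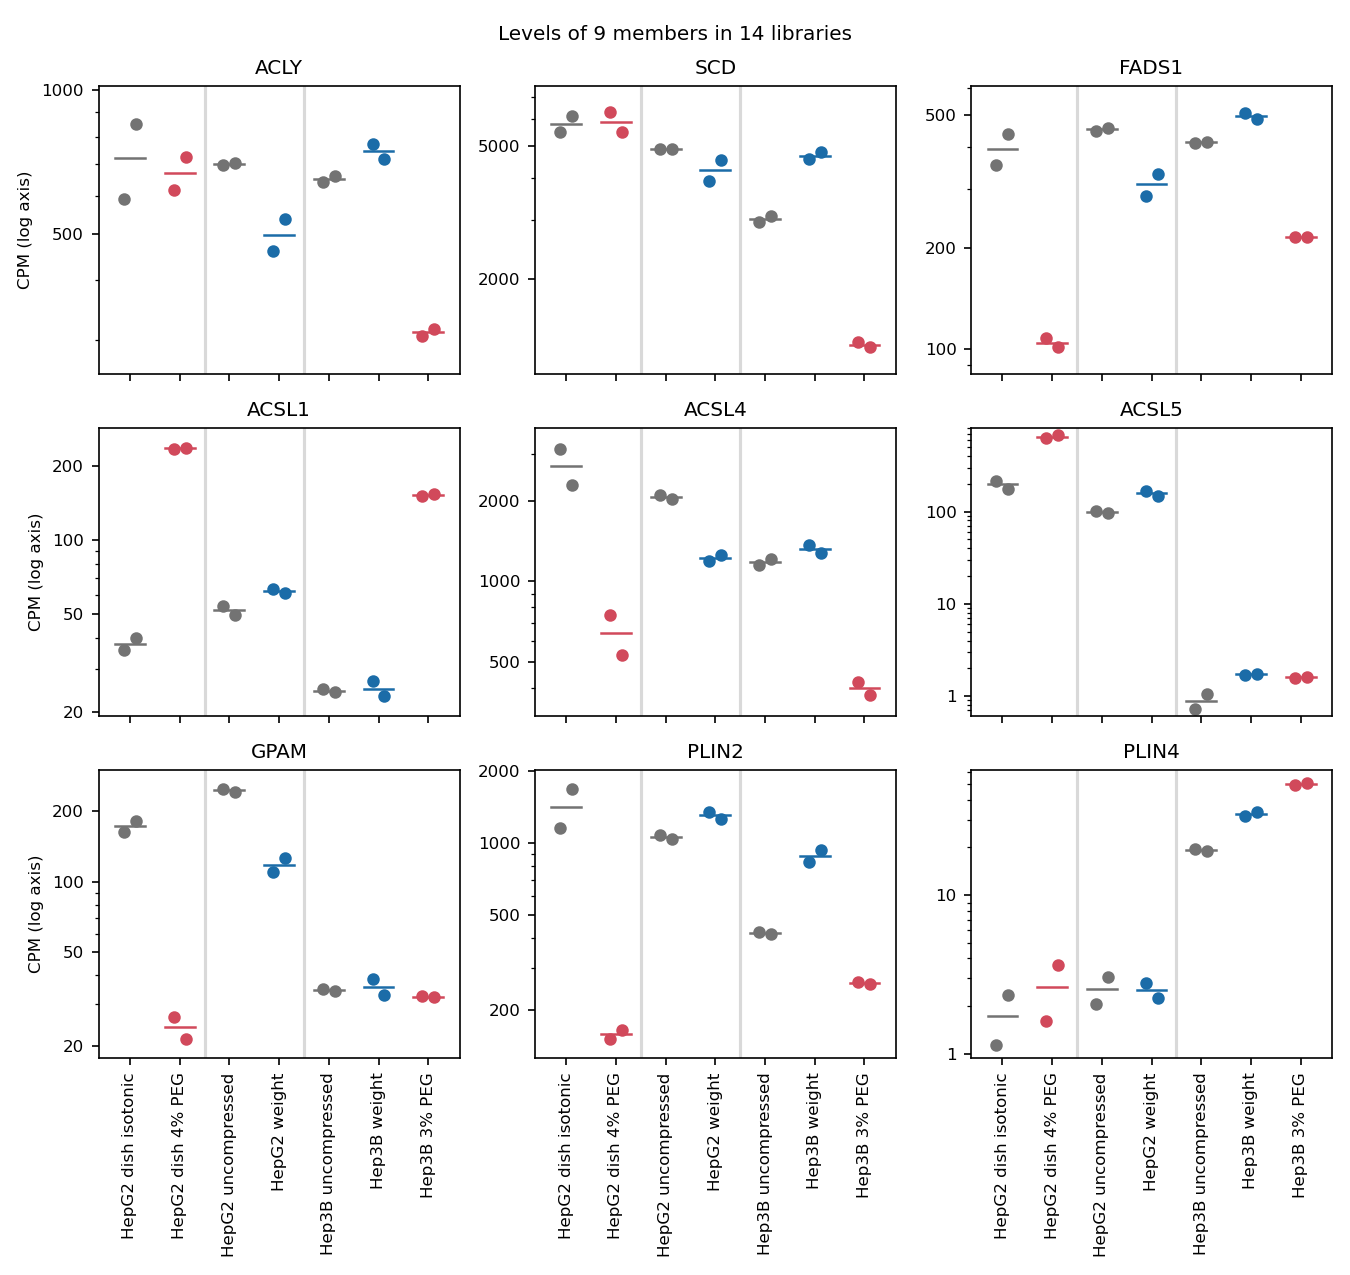
CPM on a log axis of 9 genes in the 14 libraries; points are libraries, short lines are means of 2, grey marks controls, red PEG and blue the weight. ACSL1 is high in both PEG groups, SCD is highest under the weight and lowest under 3% PEG within Hep3B, and the ACSL5 and GPAM panels separate the 2 lines.

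In glycerolipid assembly, 6 of 9 genes were called under 4% PEG (46.9% of all genes), 2 under the weight in HepG2 (9.58% of all genes) and 1 under 3% PEG (22.5% of all genes). Under the weight in Hep3B edgeR called 0 of the 9 (2 at an unadjusted p under 0.05, and 0 by DESeq2), beside 1.05% of all genes. The dish fit called 1 higher and 1 lower under 4% PEG (19.3% of all genes). The transwell fit called 3 higher and 3 lower under the weight in HepG2 (36.9% of all genes). It called 3 higher and 1 lower under the weight in Hep3B (14.7%), and 2 higher and 4 lower under 3% PEG (49.9%). GPAM, the mitochondrial enzyme that adds the first acyl chain to glycerol phosphate, held 163 and 182 CPM in isotonic dishes and 26.6 and 21.3 CPM in 4% PEG. HepG2 on transwells held 249.7 and 243 CPM uncompressed and 110.2 and 126 CPM under the weight. Both HepG2 treatments lay well below their controls, with log2 fold changes of -2.85 ± 0.14 (SE; adjusted p = 3.86e-08) and -1.06 ± 0.13 (SE; adjusted p = 0.000596). All 6 Hep3B libraries lay between 32.1 and 38.4 CPM, and the groups overlapped in the weight comparison (0.05 ± 0.13, SE; adjusted p = 1); under 3% PEG the change was -0.09 ± 0.13 (SE; adjusted p = 0.684).

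AGPAT2, which adds the second acyl chain, showed how replicate error bears on a call. On transwells HepG2 held 7.09 and 5.92 CPM uncompressed and 30.2 and 30.6 CPM under the weight, far apart, with a log2 fold change of 2.22 ± 0.40 (SE; adjusted p = 0.00564). On dishes it held 11.6 and 27.1 CPM in isotonic medium and 4.6 and 10.6 CPM in 4% PEG. The 2 replicates of each dish group differed by over 1 on the log2 scale, and the fall (-1.35 ± 0.39, SE; adjusted p = 0.0137) was lost in the dish fit (adjusted p = 0.132) and was called in the dish fit with a replicate block, as were the other calls that the dish fit lost. Its transcripts had the highest GC content of the tested genes, 65.8%. DGAT2, which completes triglyceride from newly made fatty acids, rose under both PEG treatments, by 2.00 ± 0.37 in HepG2 and 1.11 ± 0.36 in Hep3B. The lipins, phosphatidate phosphatases, parted under 4% PEG, with LPIN1 at 0.92 ± 0.14 and LPIN2 at -0.77 ± 0.12, and both calls were lost in the dish fit. AGPAT1, lower under 4% PEG by 1.01 (adjusted p = 0.0146; 0.135 in the dish fit), shares 30.2% of its exon bases with other genes, and the sources used here give no counting strand.

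On the droplet coat, PLIN2, the main perilipin of liver cells, held 1155 and 1683 CPM in isotonic dishes and 152 and 166 CPM in 4% PEG, a change of -3.16 ± 0.16 (SE; adjusted p = 5.68e-08). In Hep3B it held 423 and 419 CPM uncompressed, 832 and 935 CPM under the weight and 263 and 257 CPM under 3% PEG. As for SCD, the 3 Hep3B groups were apart, in the order 3% PEG, uncompressed, weight. The log2 fold change was 1.07 ± 0.15 (SE; adjusted p = 0.00572) for the weight and -0.70 ± 0.15 (SE; adjusted p = 0.00682) for 3% PEG. In HepG2 on transwells the libraries held 1079.8 and 1040.4 CPM uncompressed and 1354 and 1257 CPM under the weight, without overlap, and the difference did not pass the test (0.30 ± 0.15, SE; adjusted p = 0.263).

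CIDEC, which transfers lipid between touching droplets, held 5.41 and 10.3 CPM in isotonic dishes and 40.5 and 64.5 CPM in 4% PEG, a rise of 2.75 ± 0.31 (SE; adjusted p = 2.5e-05). In Hep3B it was nearly silent without compression, with 1 count in the 2 libraries together against 71 counts under 3% PEG. The ratio of normalised counts was 76.3 (exact 95% interval 13.3 to 3056, covering counting error only), and the call had an adjusted p of 0.000263 in edgeR's quasi-likelihood test. Its level under 3% PEG, 1.33 and 1.34 CPM, stayed below that of uncompressed HepG2 (4.06 and 3.6 CPM). PLIN4, which coats small droplets, rose under 3% PEG in Hep3B by 1.38 ± 0.32. PLIN3 was higher under 4% PEG by 0.90 ± 0.29, a call lost in the dish fit (adjusted p = 0.174). PNPLA3, a lipid droplet hydrolase and acyltransferase, fell by 1.08 under 4% PEG and by 1.31 under 3% PEG (adjusted p = 0.000274 and 0.000223), and the first of these was lost in the dish fit (0.0644). The triglyceride lipase PNPLA2 stood between 30.4 and 48 CPM as group means and was called in none of the 4 comparisons.

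The 2 kinds of compression were compared directly in Hep3B, where 3% PEG and the weight were applied on the same surface. SCD, PLIN2, ACSL4, PNPLA3, ACSS2 and FASN were the genes furthest below the weight group, and CIDEC, ACSL1, DGAT2, FADS3 and ACACB were above it. Of the 36 genes, 20 were called (55.6%), 5 higher and 15 lower under 3% PEG than under the weight, beside 23.1% of all genes (11.4% higher and 11.8% lower). The median log2 difference was -0.59, against -0.02 over all genes. The transwell fit called 31, 9 higher and 22 lower, beside 49.6% of all genes (25.6% higher and 23.9% lower), and kept the 20. The count was 12 without weight replicate 2 or without PEG replicate 2, 13 without PEG replicate 1 and 14 without weight replicate 1.

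SCD differed by -1.88 ± 0.12 (SE; adjusted p = 1.54e-06) and PLIN2 by -1.76 ± 0.16 (SE; adjusted p = 1.67e-05). FASN, short of the threshold against uncompressed cells, stood at 794 ± 42.1 CPM under the weight and 261 ± 28.2 CPM under 3% PEG, a difference of -1.60 ± 0.43 (SE; adjusted p = 0.0194). In carbon supply and synthesis, ACSS2, FASN, ACLY and ACACA were lower under 3% PEG and ACACB higher. ACSL1 was the member with the smallest adjusted p (2.61 ± 0.12, SE; adjusted p = 2.56e-07). AGPAT2, LPIN1, LPIN2 and ACSL3 differed here, at -1.37, -0.59, -0.60 and -0.61 on the log2 scale, though none of the 4 was called against uncompressed cells in either treatment. ACSL5, with 1.69 and 1.75 CPM under the weight and 1.57 and 1.62 CPM under 3% PEG, differed by -0.11 ± 0.20 (SE; adjusted p = 0.782), and this difference did not pass the test. The summed CPM of the 39 genes was 8876 and 9237 in uncompressed Hep3B, 11863 and 11947 under the weight and 5026 and 4992 under 3% PEG.

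**Figure D4:**
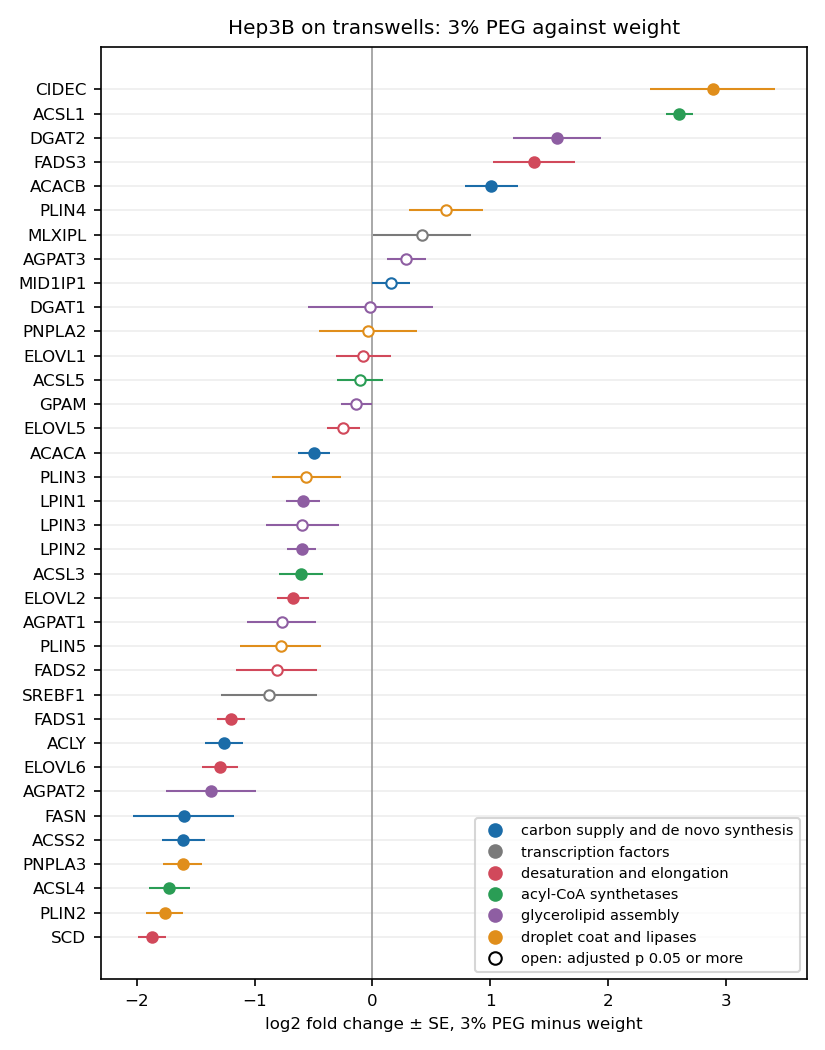
Log2 fold change ± SE of 3% PEG minus weight in Hep3B (x axis) for the 36 tested genes (rows, coloured by role as named in the key), filled where the adjusted p was under 0.05. SCD is the lowest point at -1.88 and CIDEC the highest at 2.89, with 15 filled points below 0 and 5 above.

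Whether the weight acted differently in the 2 lines was tested as an interaction. GPAM, ELOVL6, SCD and FADS1 had a weight effect that was higher in Hep3B than in HepG2. GPAM differed by 1.10 ± 0.19 (SE; adjusted p = 0.0125), ELOVL6 by 1.14 ± 0.21 (SE; adjusted p = 0.0202), SCD by 0.84 ± 0.16 (SE; adjusted p = 0.0234) and FADS1 by 0.81 ± 0.17 (SE; adjusted p = 0.0322). These 4 of 36 (11.1%) stood beside 1.89% of all genes called, 0.822% with a higher and 1.07% with a lower effect in Hep3B. ELOVL6 held 133 and 138 CPM in uncompressed HepG2 and 83.5 and 105 CPM under the weight, and 47.5 and 50.4 CPM in uncompressed Hep3B and 73 and 77.9 CPM under the weight. Its libraries went down in HepG2 and up in Hep3B without overlap. Neither change alone passed the test in the fit of all libraries (-0.52 ± 0.15, SE; adjusted p = 0.05001 and 0.62 ± 0.15, SE; adjusted p = 0.0935). For SCD and FADS1 the libraries likewise lay below the controls in HepG2 and above them in Hep3B, while for GPAM the fall was in HepG2. The other 32 genes were not called, among them PLIN2 (0.77 ± 0.21, SE; adjusted p = 0.113). The transwell fit called 20, 15 higher and 5 lower, beside 21.1% of all genes (11.1% higher and 9.95% lower). No gene of the list was called without either uncompressed library of either line, or without weight replicate 1 of either line, with 11 to 13 genes at an unadjusted p under 0.05. Without weight replicate 2, 3 were called for HepG2 and 1 for Hep3B.

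Without compression, Hep3B had lower levels than HepG2 of all 4 acyl-CoA synthetases, of GPAM and of ELOVL6, and higher levels of the perilipins PLIN4 and PLIN5. Of the 36 genes, 23 were called (63.9%), 7 higher and 16 lower in Hep3B, beside 54.7% of all genes (27.6% higher and 27.1% lower). The median log2 difference was -0.47, against 0.02 over all genes. Scaling by total counts moved the median of all genes to 0.35. The transwell fit called 33, 10 higher and 23 lower, beside 71.0% of all genes (35.1% higher and 35.9% lower). The lines also differ in donor and tumour type, which cannot be told apart from one another.

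ACSL5 held 102 and 96.3 CPM in HepG2 and 0.734 and 1.05 CPM in Hep3B (-6.78 ± 0.19, SE; adjusted p = 2.82e-10). GPAM held 249.7 and 243 CPM and 34.8 and 34.2 CPM (-2.83 ± 0.14, SE; adjusted p = 1.54e-08). CIDEC was near 0 in Hep3B, with 1 count against 178 in HepG2, a ratio of 0.00458 (exact 95% interval 0.000115 to 0.0259; adjusted p = 2.19e-06 in edgeR). These 3 genes gave the widest gaps below HepG2. For ACSL1 the levels given above differed by -1.08 ± 0.11 (SE; adjusted p = 6.41e-06), and ELOVL6 by -1.47 ± 0.15 (SE; adjusted p = 7.26e-06). In the other direction, PLIN4 had 19.4 ± 0.436 CPM in Hep3B against 2.56 ± 0.714 CPM in HepG2 (2.91 ± 0.36, SE; adjusted p = 3.13e-05), AGPAT2 differed by 2.08 ± 0.40 (SE; adjusted p = 0.000902) and ELOVL2 by 1.26 ± 0.14 (SE; adjusted p = 1.15e-05). ACLY, FASN and FADS1 did not pass the test between the lines, with -0.10, -0.29 and -0.13.

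**Figure D5:**
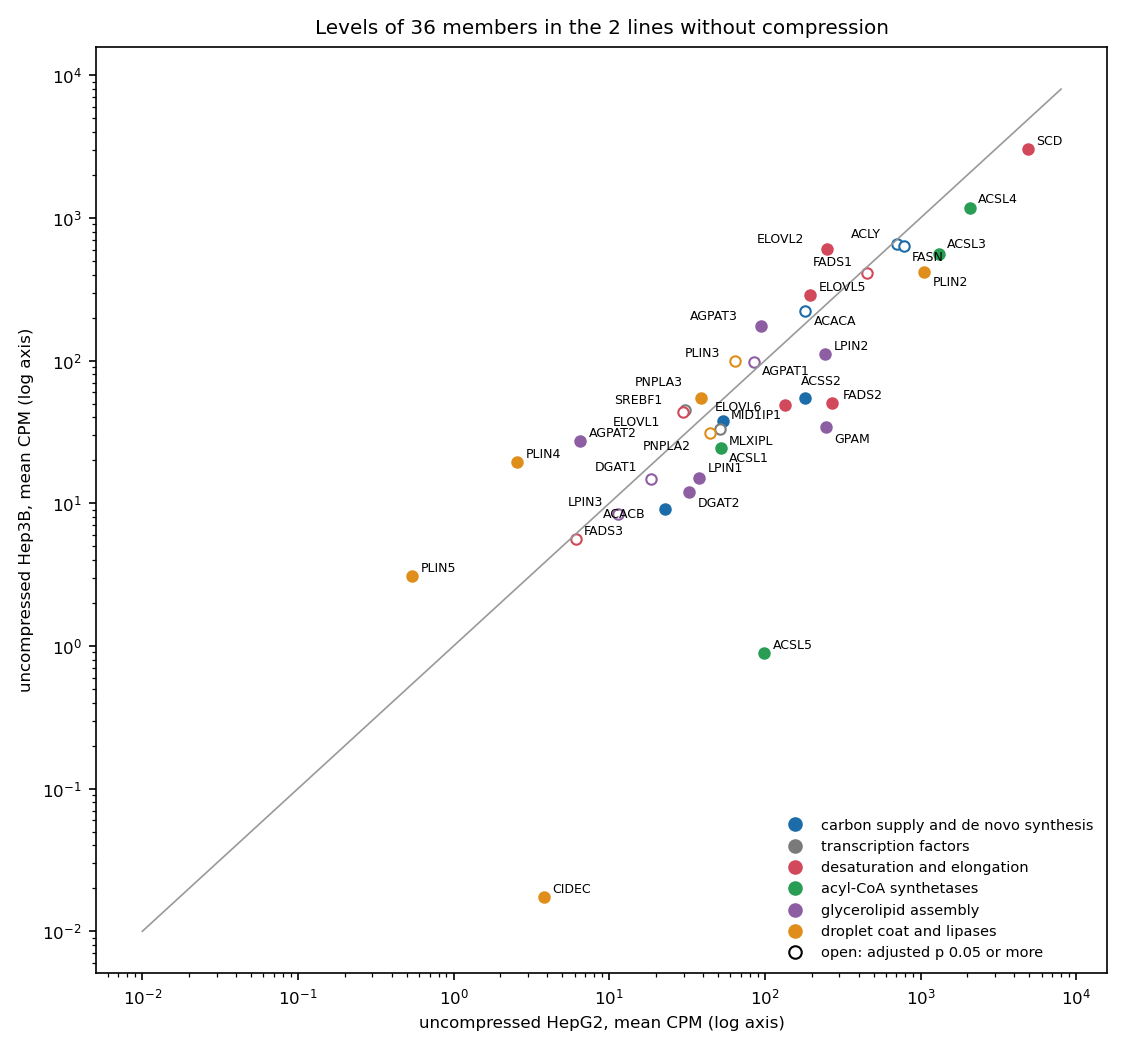
Mean CPM of the 36 tested genes in uncompressed HepG2 (x axis) and uncompressed Hep3B (y axis), both log axes, with the line of equal level and filled points for an adjusted p under 0.05. ACSL5 and CIDEC lie furthest below the line, and PLIN4 and PLIN5 furthest above it.

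Levels between genes were compared per kilobase of exon. In uncompressed HepG2 the order was led by SCD at 911 CPM per kb, ACSL4 at 323, PLIN2 at 208 and ACSL3 at 181. In uncompressed Hep3B it was SCD at 564, ACSL4 at 184, ELOVL2 at 151 and ACLY at 125 CPM per kb. Under 4% PEG ACSL5 reached the third place at 153 CPM per kb, close to ACSL3 at 162, and the wide replicate spread of ACSL3 there (1171 ± 431 CPM) means that their order is not settled.

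A further 47 genes of the same pathways (citrate and NADPH supply, elongation partners, uptake, other acyltransferases, droplet and lipase cofactors, regulators) were examined, of which 44 were tested. Under 4% PEG 26 were called, 16 higher and 10 lower, beside 46.9% of all genes (23.9% higher and 23.0% lower). The fit of the dish libraries alone called 7 higher and 5 lower, beside 19.3% of all genes (10.2% higher and 9.05% lower). GPAT3, a glycerol-3-phosphate acyltransferase of the endoplasmic reticulum, rose by 4.66 ± 0.19 and its relative GPAT4 by 1.35 ± 0.12. PPARG, a receptor that drives fat storage genes, fell by 1.81 and INSIG2, which holds SREBP precursors in the endoplasmic reticulum, fell by 1.39 (adjusted p = 6.14e-07 and 6.49e-07). GPAM and GPAT3 carry out the same step and moved in opposite directions: GPAT3 held 6.05 and 5.45 CPM in isotonic dishes and 170.1 and 121 CPM in 4% PEG. In Hep3B GPAT3 rose under 3% PEG as well, by 2.41 ± 0.17, from 6.46 and 7.44 CPM to 36.5 and 37.3 CPM.

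Under the weight in HepG2, 5 of the 44 were called, 3 higher and 2 lower (9.58% of all genes), among them GPAT3 (1.51 ± 0.18), the droplet assembly factor LDAF1 (1.16 ± 0.18), the NADPH-producing enzyme IDH1 (-1.04 ± 0.12) and the fatty acid transporter SLC27A2 (-0.81 ± 0.13). Under the weight in Hep3B PPARG was the 1 gene called (1.05% of all genes), higher by 0.94 ± 0.13. Under 3% PEG 17 were called, 12 higher and 5 lower, beside 22.5% of all genes (11.0% higher and 11.5% lower). ME1, which makes NADPH for fat synthesis, rose from 41.4 and 42.1 CPM to 309.9 and 300.5 CPM (2.87 ± 0.23, SE; adjusted p = 2.89e-05). G0S2, an inhibitor of PNPLA2, had 0 counts in uncompressed Hep3B and 169 under 3% PEG, at least 60.6-fold higher with the empty group set at 3 counts over its 2 libraries. HSD17B11, a droplet protein, rose by 0.74 ± 0.10. Between 3% PEG and the weight 20 of the 44 differed, 12 higher and 8 lower (23.1% of all genes), led by GPAT3 (2.24), ME1 (2.84), HACD2 (0.91), a dehydratase of chain elongation, and INSIG2 (-0.73). In the interaction 3 were called, 2 higher and 1 lower (1.89% of all genes). Between the uncompressed lines 32 differed, 13 higher and 19 lower in Hep3B (54.7% of all genes). INSIG1, the sterol-regulated partner of INSIG2, had a mean of 65 ± 0.123 CPM in Hep3B against 0.15 ± 0.0224 CPM in HepG2, and INSIG2 had 69.6 ± 0.733 against 375 ± 20.3 CPM. ME1 had 0 counts in uncompressed HepG2 and 2387 in Hep3B, at least 649-fold higher on the same floor. LDAF1 had 3 counts in Hep3B against 317 in HepG2, a ratio of 0.00772 (exact 95% interval 0.00158 to 0.0228). For the 44 genes the transwell fit called 9 higher and 11 lower under the weight in HepG2 (36.9% of all genes). It called 9 higher and 5 lower under the weight in Hep3B (14.7%), and 19 higher and 12 lower under 3% PEG (49.9%). Between 3% PEG and the weight it called 19 higher and 15 lower (49.6%), and between the lines 16 higher and 21 lower (71.0%).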

How the data were processed

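Counts per gene, whole numbers with 1 column per library, were used as deposited. Per the labels' protocols, total RNA was read as paired ends of 100 bp on HiSeq or NovaSeq instruments, and STAR, DESeq2 and the GRCh38 (hg38) build are listed, without versions, in the submitters' processing notes. Neither counting tool nor strand setting is given in the sources used here. Columns headed as Hep3B control were read as the uncompressed Hep3B libraries. No pair of replicates agreed within sampling noise.

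All 14 libraries were fitted with edgeR 4.0.16 in R 4.3.3 (filterByExpr with a minimum count of 10, TMM, robust quasi-likelihood, 7 group means, 7 residual degrees of freedom) with no replicate term. P-values were adjusted by Benjamini-Hochberg over 19232 genes and called under 0.05. Levels are CPM on TMM-scaled library sizes. Lengths, GC content and exon overlaps came from GENCODE 29, which held all 56479 gene IDs. Entries without a gene name held at most 0.308% of a library. Where a group held 0 counts, a fold is a lower bound at 3 counts over that group, and at 1 to 3 counts a ratio has its exact 95% interval. Alternatives were other size factors and filters, DESeq2 1.42.0, a minimum log2 change of 0.5, fewer groups in the fit, a replicate term and leaving out each library. In a test on simulated data (19232 genes, 200 of them changed), the same fit found 43% of 2-fold and 80% of 4-fold changes for 4% PEG in HepG2, 46% and 74% for the weight in HepG2, 23% and 78% for the weight in Hep3B, and 47% and 78% for 3% PEG. The simulated libraries all had the same spread for a given gene. The real spread was wider on dishes and narrower on transwells, so these shares do not give the recovery in either.

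The members, the further pathway genes and the marker lists were chosen with earlier results of these data known. Values in every library are given for the 5 genes with the smallest adjusted p in each compression comparison and between the lines, for genes called in at least 3 of 4 compression comparisons, and for genes called in the interaction. Others are summarised, and further pathway genes are named by smallest adjusted p, at most 4 per comparison.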

Additional observations from a re-analysis of the deposited data

Results flagged for a closer look

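The weight effect differed between the 2 lines for 4 genes of the list (11.1% of the 36 tested) by edgeR's interaction test, beside 1.89% of all genes. With a minimum log2 change of 0.5, 0 genes of the list were called, beside 0.645% of all genes. The calls also depended on single libraries, as given above. The difference, Hep3B minus HepG2 on the log2 scale, was 1.10 for GPAM, 1.14 for ELOVL6, 0.84 for SCD and 0.81 for FADS1. GPAM fell under the weight in HepG2 and had a log2 fold change of 0.05 in Hep3B that did not pass the test, while the libraries of ELOVL6, SCD and FADS1 lay below the controls in HepG2 and above them in Hep3B.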

How the results depend on the processing

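No log2 fold change of a tested gene of the list that was called, in the 14-library fit or in an alternative, changed its sign under any alternative run, but the counts of calls moved, and the cause was not tested unless stated. Fitting the compared groups alone gave 13, 25, 20, 30 and 30 calls for 4% PEG, the weight in HepG2, the weight in Hep3B, 3% PEG, and 3% PEG against the weight, 35 between the lines and 20 for the interaction, beside 19.3%, 36.8%, 13.6%, 51.9%, 49.0%, 72.3% and 19.0% of all genes. The fit by surface gave 13, 27, 20, 28, 31, 33 and 20 in the same order, beside 19.3%, 36.9%, 14.7%, 49.9%, 49.6%, 71.0% and 21.1%. Without the low-count filter the weight gave 14 calls in HepG2, 6 in Hep3B and 12 in the interaction (5.98%, 1.19% and 1.76% of all genes), and DESeq2 gave 10, 5 and 10 (13.8%, 3.00% and 5.44%). A minimum log2 change of 0.5 left 2 and 0 calls for the weight in HepG2 and Hep3B (5 and 4 at an unadjusted p under 0.05), 10 for 3% PEG, 11 for 3% PEG against the weight and 0 for the interaction (10 unadjusted), beside 2.85%, 0.400%, 9.20%, 9.63% and 0.645% of all genes. Leaving out 1 library, whose partner was then assumed to vary like the other groups, gave 21 to 25, 1 to 5, 0 to 1, 9 to 12, 12 to 14, 21 and 0 to 3 calls in that order, beside 44.8 to 48.4%, 2.50 to 3.73%, 0.192 to 0.629%, 10.6 to 11.5%, 10.9 to 13.0%, 43.7 to 44.3% and 0.530 to 0.749% of all genes. RLE size factors, a filter of 5 CPM in 2 libraries and total counts kept every count within 1.5 times. Of the alternatives, the fit of dish libraries with a replicate term and the total-count scaling were added after seeing the data. Replicate numbers are shared between groups, but the labels do not tie a number to a shared source, and r of the deviations across 19232 genes was 0.633 between the dish groups, 0.117 and 0.140 between these and 3% PEG in Hep3B, and -0.078 to 0.073 between all other groups, so they were not taken as pairs. Replicate 1 did hold a larger share of mitochondrial counts than replicate 2 in every group, and what this reflects was not tested. A replicate block in the 14-library fit gave 22, 10, 2, 19, 21, 26 and 6 calls (beside 49.0%, 11.2%, 1.22%, 24.6%, 25.2%, 56.4% and 2.29% of all genes), and 25 for 4% PEG in the dish libraries alone (58.5%). The biological coefficient of variation was 0.32 and 0.29 in the dish groups against 0.0459 to 0.0705 on transwells, which limits the precision for 4% PEG.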
